A study of Mus musculus with 18 samples.

Results

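The genes described here handle organic osmolytes and urea in the thick ascending limb, or switch on such genes when tonicity rises. They were chosen by name, with earlier results of these data known, and comprise 9 of the 55401 genes in the tables, of which 33307 had counts. Their counts and medians are therefore set beside those of all genes as a description only. The regulator was *Nfat5*. The carriers of compatible solutes were *Slc6a12*, *Slc5a3*, *Slc6a6* and *Slc38a2*. The enzymes were *Akr1b3* and *Gpcpd1*, and the urea transporters were *Slc14a1* and *Slc14a2*. *Slc6a12* and *Slc14a1* were more expressed in the medullary than in the cortical thick ascending limb of either genotype. *Slc14a2* passed the main test between the segments of the cKO mice but not of the WT mice. Among the WT pools 1 cortical pool stood apart, and with that pool kept *Slc14a2* passed in 5 of 9 other ways of fitting. Both urea transporters were lower in MTAL of *Cldn10*-deficient mice than of WT mice. Neither passed in 1 fit of all pools with a term for pools with *Xist*. In that fit without the term, *Slc14a2* did not pass either.

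Cells of the renal medulla live in an interstitium that is rich in salt and urea, and they balance it by gathering small organic solutes that do not disturb proteins, such as betaine, myo-inositol, taurine, sorbitol and glycerophosphocholine. The transcription factor NFAT5, also called TonEBP, enters the nucleus when tonicity rises and is known to switch on the carriers of betaine and myo-inositol, the aldose reductase that makes sorbitol and the urea transporter UT-A. Urea itself is recycled through the medulla by UT-A, known from the thin descending limb and the inner medullary collecting duct, and by UT-B, known from the vasa recta and red blood cells.

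The 18 pools were tubules dissected by hand, after liberase digestion, from the cortex (CTAL) or from the outer medulla, in its inner stripe (MTAL), of adult mice described as males, labelled C57BL/6J and in the study's methods mostly but not wholly of C57BL/6 background, with 1 animal behind each pool. There were 5 pools of WT CTAL, 5 of cKO CTAL, 5 of WT MTAL and 3 of cKO MTAL. The cKO mice carried *Cldn10* fl/fl alleles and Ksp-Cre, a recombinase driven by the Ksp-cadherin promoter of the distal nephron, and the WT mice were *Cldn10* fl/fl littermates without Cre, so that both genotypes carried the floxed alleles. Pools that the study left out after quality control or for their *Cldn10* level were not analysed here. The study reports nephrocalcinosis in the outer medulla of the cKO kidneys, which made the cKO MTAL very hard to dissect. In the differences of cKO MTAL, its part cannot be told apart from that of the genotype.

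The labels were checked first. *Cldn10* lay between 384 and 810 CPM (counts scaled to the same library total) in the 10 WT pools and between 151 and 296 CPM in the 8 cKO pools, so that a part of the transcript was left in every cKO pool. *Slc12a1*, which encodes the cotransporter NKCC2 that defines this segment, lay between 11420 and 16150 CPM in all 18 pools. Total counts ranged from 10824299 to 62339939 a pool. Libraries that stood apart were WT CTAL pool 3, the shallowest, in which the thin limb marker *Aqp1* reached 84.0 CPM against 19.3 to 45.2 CPM in the other WT CTAL pools, and cKO MTAL pool 20, in which 6 principal cell markers summed to 970 CPM against 49.2 to 319 CPM in the other MTAL pools. WT CTAL pool 1 carries a knock-out genotype in part of its labels and the WT name in its pool name, was counted as WT, and had 446 CPM of *Cldn10*. *Xist* was at 3 CPM or more in 4 of 5 WT MTAL, 0 of 3 cKO MTAL, 2 of 5 WT CTAL and 1 of 5 cKO CTAL pools, although the mice were described as males. In such bulk pools, fewer cells of a type and less RNA per cell cannot be told apart.

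The sequence through which NFAT5 is known to act, the tonicity-responsive enhancer, was searched in the 250 bases before the transcription starts of RefSeq (GRCm38.p6), on both strands. Windows were matched for 4 of the 9 genes, 5 for *Slc6a12*, some of which overlap, and 1 each for *Nfat5*, *Slc5a3* and *Slc38a2*. *Slc6a6*, *Akr1b3*, *Gpcpd1*, *Slc14a1* and *Slc14a2* had no entry. The consensus was found in 1 of these 8 windows, that of the most upstream start of *Slc6a12*, and in 4.31% of the 32851 windows of all genes. Its core, TGGAAA, was found in 1 of the 8 windows, the same one, and in 18.6% of all windows. The core holds the GGAAA that the other NFAT factors are also known to bind, so that a match does not tell these factors apart. The *Slc6a12* window, on the plus strand at chr6:121342324-121342573, is shown because it belongs to the gene with one of the steepest differences between the segments, and its match is in capitals, from 75 to 65 bases before the start. The *Slc5a3* window, on the plus strand at chr16:92058072-92058321, is shown beside it as that of the other known NFAT5 target with an entry, and holds no match, which says only that these letters are not in this window.
Slc6a12: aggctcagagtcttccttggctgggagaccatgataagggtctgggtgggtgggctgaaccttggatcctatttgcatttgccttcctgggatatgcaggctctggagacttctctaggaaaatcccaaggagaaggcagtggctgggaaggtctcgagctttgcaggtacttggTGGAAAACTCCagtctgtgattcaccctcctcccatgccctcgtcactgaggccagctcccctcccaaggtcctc
Slc5a3: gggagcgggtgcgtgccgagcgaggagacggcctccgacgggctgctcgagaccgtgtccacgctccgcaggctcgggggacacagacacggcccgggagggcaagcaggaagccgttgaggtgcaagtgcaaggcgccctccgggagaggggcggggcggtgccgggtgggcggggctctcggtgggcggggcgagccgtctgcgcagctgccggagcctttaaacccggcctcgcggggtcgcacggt

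Levels of the 9 genes were compared with each other in TPM, which correct for transcript length as well as library total. In WT MTAL, *Slc5a3*, the sodium/myo-inositol cotransporter, was the most abundant at a mean of 301 TPM ± 93.1 (SD, n = 5). It was followed by *Slc38a2*, a neutral amino acid transporter, at 54.9 TPM ± 11.3, *Nfat5* at 41.1 TPM ± 15.2, and *Akr1b3*, the aldose reductase, at 29.3 TPM ± 6.02. *Slc6a12*, the betaine transporter, at 20.8 TPM ± 10.3, *Slc14a2* at 19.5 TPM ± 8.41 and *Gpcpd1*, a glycerophosphocholine phosphodiesterase, at 17.6 TPM ± 9.13 came next. *Slc6a6*, the taurine transporter, at 8.28 TPM ± 0.836 and *Slc14a1* at 4.13 TPM ± 0.877 were the lowest. The ranges of neighbours in this order overlapped, except between *Slc5a3* and *Slc38a2*, between *Gpcpd1* and *Slc6a6*, and between *Slc6a6* and *Slc14a1*.

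The order was different in the cortex. In WT CTAL, *Slc5a3* again came first at 231 TPM ± 66.7 and *Slc14a1* last at 0.794 TPM ± 0.191 (SD, n = 5). *Slc6a12* stood in place 8 at 3.104 TPM ± 1.26, against place 5 in WT MTAL. Place 7 was that of *Slc14a2*, whose mean of 5.35 TPM rested on 1 pool at 19.8 TPM, and the ranges of these genes overlapped. By the median, *Slc14a2* was at 1.74 TPM and *Slc6a12* at 2.89 TPM. In cKO CTAL, *Slc6a12* was at 2.14 TPM ± 0.464 and *Slc14a2* at 1.47 TPM ± 0.289, and in cKO MTAL they were at 13.6 TPM ± 7.92 and 5.82 TPM ± 2.49 (SD, n = 3).

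**Figure D1:**
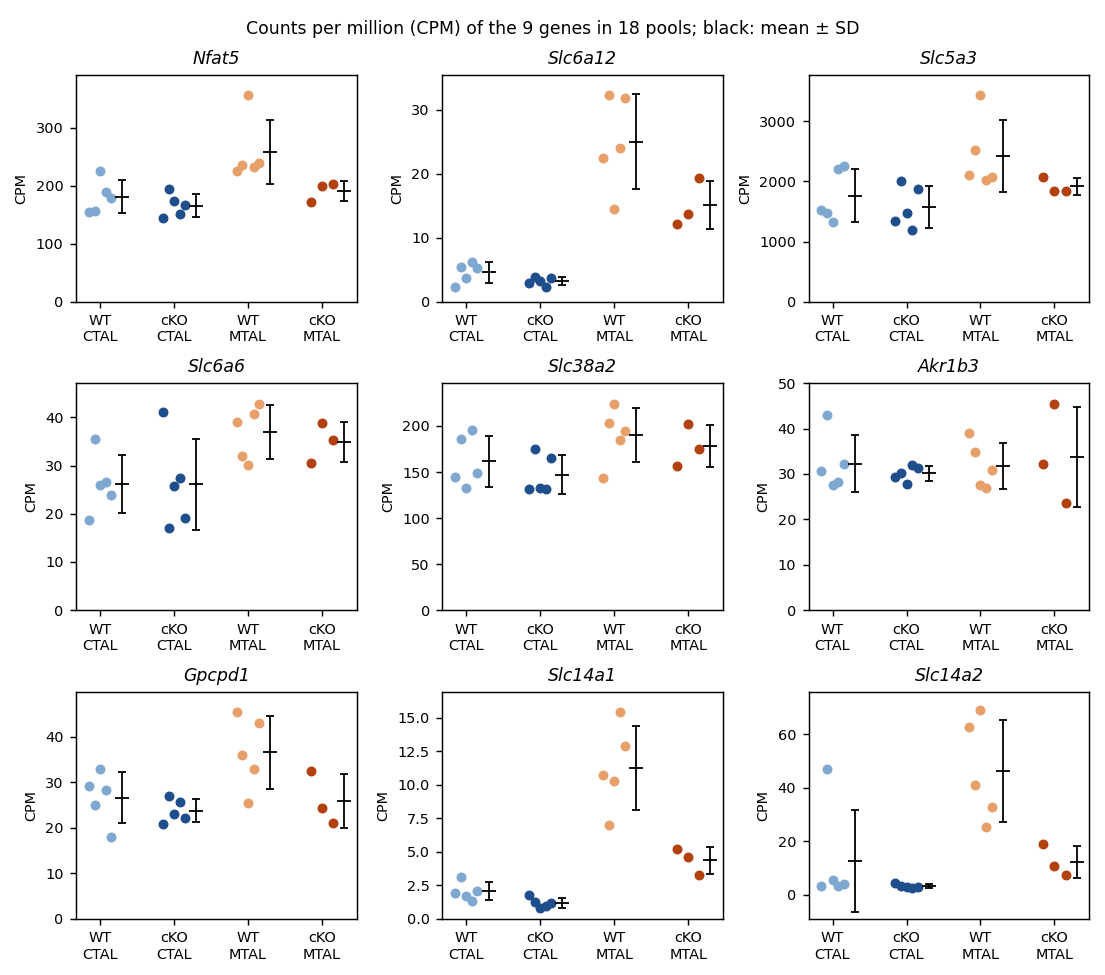
CPM of each gene (y axis, linear, 1 panel per gene) in the pools of WT CTAL, cKO CTAL, WT MTAL and cKO MTAL (x axis). Each point is a pool and the black bar is the mean with its SD. The MTAL pools of *Slc6a12*, at 12.2 CPM or more, all lie above the CTAL pools, at 6.17 CPM or less, and 1 WT CTAL pool stands at 46.9 CPM in the panel of *Slc14a2*.

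Within each gene, pools were compared in CPM scaled by TMM factors, and values are listed by ascending pool number. Differences are log2 values with their standard errors (SE), tested with the quasi-likelihood test of edgeR, and adjusted p-values are Benjamini-Hochberg values over all genes of the comparison.

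The first question was which of these genes differ between the segments of WT mice. Compared to WT CTAL, WT MTAL expressed more *Slc6a12*, *Slc14a1* and *Nfat5*, that is 3 of the 9 genes, while 2.76% of the 11650 genes tested were more expressed at an adjusted p under 0.05. None of the 9 was less expressed in WT MTAL by this test, against 4.10% of the genes tested. With a log2 difference of at least 1 as well, 2 of the 9 remained, against 2.32% of all genes in either direction. The median log2 difference of the 9 was 0.50, and that of all genes tested 0.015.

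*Nfat5* (chromosome 8, 107293470 to 107379517, plus strand) had 155, 157, 225, 189 and 180 CPM in the WT CTAL pools and 225, 236, 357, 233 and 239 CPM in the WT MTAL pools. The WT MTAL pools all stood above the WT CTAL pools, the closest pair being less than 1 CPM apart, and pool 15 stood well above the other WT MTAL pools. The log2 difference was 0.51 ± 0.13 (SE, 5 against 5 pools), with an adjusted p of 0.0288 by edgeR's quasi-likelihood test. It was 0.36 with an adjusted p of 0.0581 without WT MTAL pool 15. *Nfat5* also no longer passed without WT CTAL pools 1, 3 or 22, with adjusted p-values of 0.0863, 0.0701 and 0.0590. On log2(TPM + 1), limma gave 0.63 with an adjusted p of 0.166.

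*Slc6a12* (chromosome 6, 121343076 to 121365775, plus strand) imports betaine together with sodium and chloride. It had 2.22, 5.46, 3.68, 6.17 and 5.27 CPM in the WT CTAL pools and 22.5, 32.3, 14.6, 24.0 and 31.9 CPM in the WT MTAL pools. Every MTAL pool was thus more than 2 times above every CTAL pool. In log2 terms the difference was 2.47 ± 0.28 (SE), or 5.54-fold, with an adjusted p of 2.49e-05 by edgeR's quasi-likelihood test. It stayed past the threshold in each of the 10 fits without 1 pool, between 2.29 and 2.61.

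The other carriers of organic solutes differed less. *Slc5a3* (chromosome 16, 92058322 to 92087473, plus strand) had 1524, 1476, 1331, 2210 and 2257 CPM in WT CTAL and 2100, 2518, 3435, 2017 and 2070 CPM in WT MTAL. The groups overlapped, with pool 15 the highest of WT MTAL. The log2 difference was 0.46 ± 0.17 (SE), with an adjusted p of 0.124 by edgeR. *Slc5a3* shares its locus and strand with *Mrps6*, a mitochondrial ribosomal protein gene, whose own difference was 0.39 ± 0.08 with an adjusted p of 0.00441, and reads of these genes may have been split by the counting.

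*Slc6a6* (chromosome 6, 91684053 to 91759066, plus strand) had 18.8 to 35.5 CPM in the cortical and 30.2 to 42.9 CPM in the medullary WT pools, with a log2 difference of 0.50 ± 0.16 (SE) and an adjusted p of 0.0702 by edgeR. It passed the threshold without WT CTAL pool 3, its highest CTAL pool, at 0.63 with an adjusted p of 0.0147, and with the likelihood ratio tests of edgeR (0.0350) and DESeq2 (0.0281 with TMM factors). Genes that overlap *Slc6a6* on either strand may add reads to it. *Slc38a2* (chromosome 15, 96687392 to 96699730, minus strand), which brings glutamine and other neutral amino acids into the cell, had 133 to 195 CPM in the cortical and 144 to 224 CPM in the medullary pools, and its log2 difference of 0.24 ± 0.12 did not pass (adjusted p of 0.326).

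Neither enzyme passed the test. *Akr1b3* (chromosome 6, 34302434 to 34317478, minus strand), which reduces glucose to sorbitol, had 32.3 CPM ± 6.21 in WT CTAL and 31.8 CPM ± 5.09 in WT MTAL (SD, n = 5 each), with a log2 difference of -0.02 ± 0.14 (SE) whose sign turned in 3 of the 10 fits without 1 pool. It overlaps *Gm14546* on the other strand. *Gpcpd1* (chromosome 2, 132529082 to 132587729, minus strand), which breaks glycerophosphocholine down, had 17.9 to 32.9 CPM in the cortical and 25.5 to 45.4 CPM in the medullary pools, with a log2 difference of 0.45 ± 0.17 and an adjusted p of 0.151 by edgeR.

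Of the urea transporters, *Slc14a1* (chromosome 18, 78100091 to 78142119, minus strand) encodes UT-B. It had 1.94, 3.11, 1.72, 1.35 and 2.10 CPM in WT CTAL and 10.7, 6.97, 10.3, 15.4 and 12.9 CPM in WT MTAL. The groups stood apart, with every MTAL pool more than 2 times above the highest CTAL pool. This gave a log2 difference of 2.50 ± 0.28 (SE), or 5.64-fold, with an adjusted p of 2.63e-05 by edgeR, and lay between 2.35 and 2.66 in the 10 fits without 1 pool.

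*Slc14a2* (chromosome 18, 78146148 to 78596942, minus strand) encodes UT-A. It had 3.03, 46.9, 5.63, 3.14 and 4.07 CPM in WT CTAL and 62.8, 40.9, 69.0, 25.1 and 32.8 CPM in WT MTAL. The groups overlapped through WT CTAL pool 3 alone. With that pool the log2 difference was 1.99 ± 0.65 (SE), with an adjusted p of 0.0835 by edgeR's quasi-likelihood test. It passed in 5 of 9 other ways of fitting that kept the pool. These were edgeR's likelihood ratio test, limma on either TPM scale, 1 fit of all pools and that fit with a term for pools with *Xist*. Without WT CTAL pool 3 the difference was 3.51, with an adjusted p of 5.01e-06 by the quasi-likelihood test. In the fit without that pool *Slc6a12*, *Slc14a1* and *Slc14a2*, 3 of the 9 genes, were past both thresholds, as were 279 of all 11650 genes tested. *Slc14a2* spans a long stretch that holds other gene models on the opposite strand.

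Marker genes of other cells were read beside these differences. *Aqp1*, a water channel of the thin descending limb, was more expressed in WT MTAL, at 63.7 to 136 CPM, than in WT CTAL, at 19.3 to 84.0 CPM (log2 difference 1.5 ± 0.34 SE, adjusted p of 0.00988 by edgeR). Of 6 thin limb markers 5 reached 1 CPM in a pool of each group, and their sum lay between 234 and 336 CPM in WT CTAL and between 356 and 447 CPM in WT MTAL. Taken singly, each of these 5, *Aqp1* included, had ranges that overlapped between the groups. *Sptssb* stayed under 1 CPM in every pool. WT CTAL pool 3 had the highest sum of its group for the thin limb, and at 448 CPM the highest sum of all pools for 6 endothelial markers. The endothelial sums of the groups overlapped, at 201 to 448 CPM in WT CTAL and 251 to 375 CPM in WT MTAL. The endothelial gene *Cdh5* did not pass (0.30 ± 0.23 SE, adjusted p of 0.544 by edgeR). The part of these cells in the levels of *Slc14a2*, *Slc14a1* and *Slc6a12* was not tested.

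**Figure D2:**
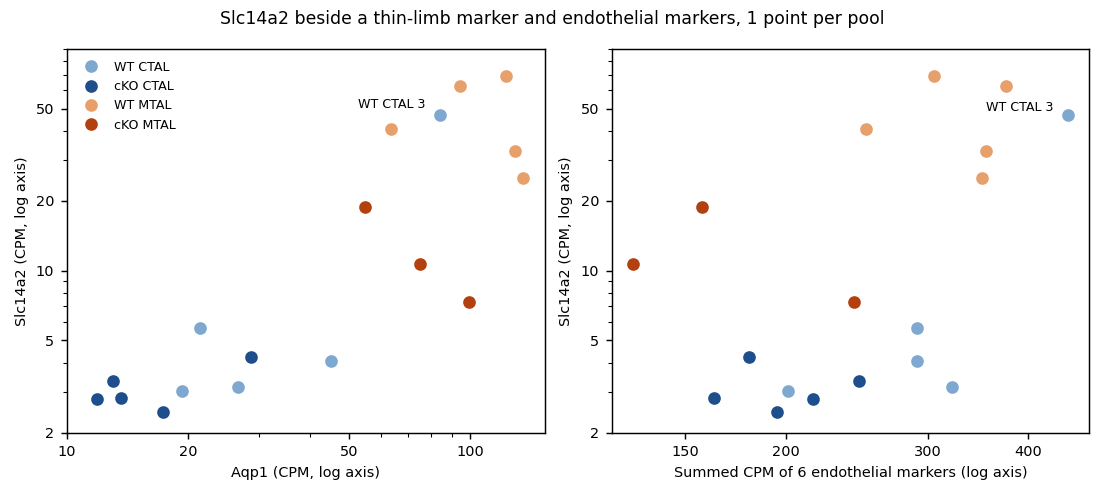
*Slc14a2* in CPM (y axis, log scale) against *Aqp1* in CPM (left, log scale) and against the summed CPM of 6 endothelial markers (right, log scale), with 1 point for each of 18 pools coloured by group. WT CTAL pool 3, at 46.9 CPM of *Slc14a2* and 84.0 CPM of *Aqp1*, lies among the WT MTAL pools, and the cKO MTAL pools, at 7.35 to 18.9 CPM of *Slc14a2*, overlap the WT MTAL pools in *Aqp1*.

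The same comparison was made between the segments of cKO mice. Compared to cKO CTAL, cKO MTAL expressed more *Slc6a12*, *Slc14a1* and *Slc14a2*, which is 3 of the 9 genes against 1.12% of the 12044 genes tested. None was less expressed by this test, against 0.631% of all genes. All 3 had log2 differences of at least 1, which 0.938% of all genes had with an adjusted p under 0.05 in either direction. The cKO MTAL pools stood above the cKO CTAL pools without overlap for these 3 genes as well, a pattern shown by 4.20% of the genes tested. Between the WT segments, *Nfat5*, *Slc6a12* and *Slc14a1* showed it, against 3.06% of the genes tested.

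*Slc6a12* had 2.97, 3.91, 3.30, 2.24 and 3.66 CPM in cKO CTAL and 12.2, 13.8 and 19.4 CPM in cKO MTAL. The log2 difference was 2.28 ± 0.27 (SE, 3 against 5 pools), or 4.85-fold, with an adjusted p of 0.000958 by edgeR's quasi-likelihood test. *Slc14a2* had 4.25, 3.34, 2.79, 2.45 and 2.81 CPM in cKO CTAL and 18.9, 10.7 and 7.35 CPM in cKO MTAL, and none of the cKO CTAL pools was near the high value of WT CTAL pool 3. Its log2 difference was 2.0 ± 0.33, with an adjusted p of 0.00905, and 1.54 with an adjusted p of 0.0508 without cKO MTAL pool 16, its highest pool. In 1 fit of all pools *Slc14a2* did not pass either, with an adjusted p of 0.0831 by edgeR.

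*Slc14a1* had 1.78, 1.26, 0.761, 0.953 and 1.20 CPM in cKO CTAL, where it rested on as few as 15 counts in a pool, and 5.23, 4.59 and 3.26 CPM in cKO MTAL. The fitted difference was 1.89 ± 0.36 on the log2 scale (SE), with an adjusted p of 0.0213 by edgeR. It passed in 3 of the 8 fits without 1 pool, and the adjusted p rose to at most 0.0781, without cKO CTAL pool 9. The pools whose omission ended the call were cKO CTAL pools 4 (0.0567), 7 (0.0682), 9 and 21 (0.0562) and cKO MTAL pool 16 (0.0753), with log2 differences between 1.72 and 1.91.

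The other 6 genes did not pass between the cKO segments. *Nfat5* was at 166 CPM ± 20.1 in cKO CTAL (SD, n = 5) and 192 CPM ± 17.5 in cKO MTAL (SD, n = 3), with a log2 difference of 0.24 ± 0.12 (SE) and an adjusted p of 0.314. *Slc5a3*, *Slc6a6*, *Slc38a2*, *Akr1b3* and *Gpcpd1* had log2 differences between 0.16 and 0.45. *Aqp1* differed between the cKO segments too, at 11.9 to 28.7 CPM in cKO CTAL and 55.0 to 99.5 CPM in cKO MTAL (log2 difference 2.21 ± 0.27 SE, adjusted p of 0.00146), and its part in the levels of the urea transporters was not tested.

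**Figure D3:**
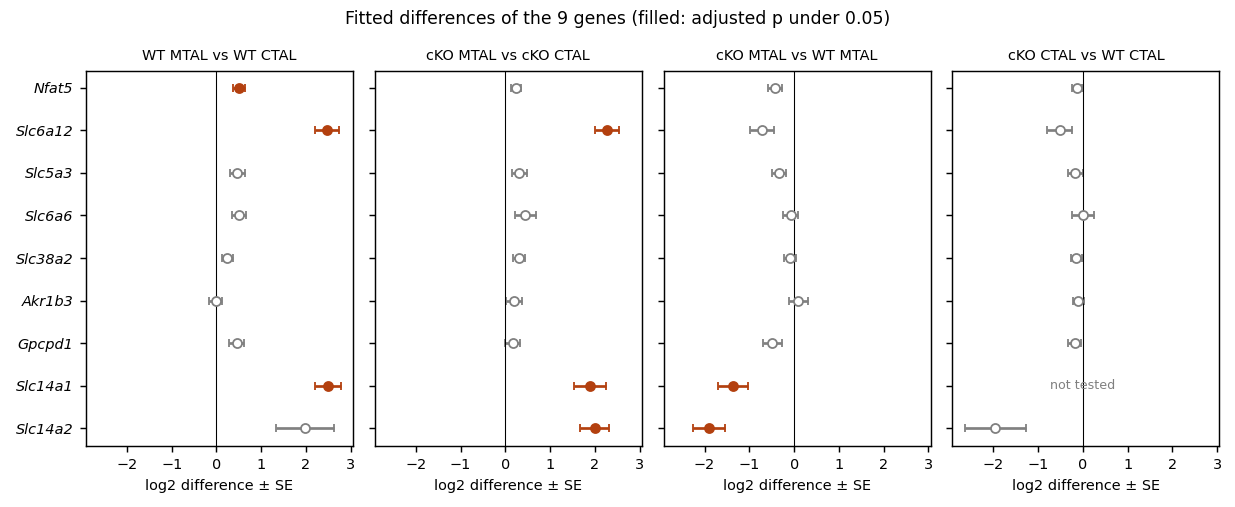
Log2 difference with its SE (x axis) of each of the 9 genes (y axis) in 4 comparisons, filled where the adjusted p was under 0.05. *Slc6a12* stands at 2.47 and 2.28 in the comparisons of the segments, and *Slc14a1* and *Slc14a2* at -1.37 and -1.90 in the comparison of the genotypes in MTAL. *Slc14a1* was too low to be tested between the CTAL groups.

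The next question was what the loss of *Cldn10* goes with in the MTAL, where its transcript is highest. Compared to WT MTAL, cKO MTAL expressed less of both urea transporters. They were 2 of the 9 genes, against 2.57% of the 12060 genes tested that were less expressed, and none of the 9 was more expressed, against 4.44% of all genes. Both were also past a log2 difference of 1, as 3.74% of all genes were in either direction. The median log2 difference of the 9 was -0.42, against 0.001 for all genes tested. With limma on log2(TPM + 1) it was -0.04, against 0.19 for all genes. Without WT MTAL pool 15 the median of the 9 was -0.27, against 0.014 for all genes.

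*Slc14a2* fell from 62.8, 40.9, 69.0, 25.1 and 32.8 CPM in WT MTAL to 18.9, 10.7 and 7.35 CPM in cKO MTAL. Every cKO pool was below every WT pool. This was a log2 difference of -1.90 ± 0.35 (SE, 3 against 5 pools), that is 3.74-fold lower, with an adjusted p of 0.00415 by edgeR's quasi-likelihood test, and it passed in all 8 fits without 1 pool, between -2.34 and -1.64.

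*Slc14a1* fell from 10.7, 6.97, 10.3, 15.4 and 12.9 CPM to 5.23, 4.59 and 3.26 CPM, again with no overlap. The log2 difference was -1.37 ± 0.34 (SE), or 2.58-fold lower, with an adjusted p of 0.0260 by edgeR. It passed in 4 of the 8 fits without 1 pool. Without WT MTAL pools 15, 17 or 19 or cKO MTAL pool 20 the adjusted p was 0.0529, 0.0844, 0.0594 and 0.0847, with log2 differences between -1.39 and -1.19.

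Both falls were also fitted with a term for pools with *Xist*, in 1 fit of all 18 pools only. With a term for pools with *Xist* at 3 CPM or more, in 1 fit of all 18 pools, the log2 difference was -0.94 with an adjusted p of 0.369 for *Slc14a2* and -0.75 with an adjusted p of 0.159 for *Slc14a1*, so that 0 of the 9 genes passed. In that fit 1099 of the 12060 genes had an adjusted p under 0.05. In WT MTAL pool 13, the only one of its group with less *Xist*, *Slc14a2* was at 40.9 CPM and *Slc14a1* at 6.97 CPM, both above every cKO MTAL pool. In 1 fit of all 18 pools without that term *Slc14a1* passed, with an adjusted p of 0.00942 by edgeR. *Slc14a2* did not pass there, at 0.0607, so that its call was already lost before the term was added. On log2(TPM + 1) limma gave 0.0516 for *Slc14a2* and 0.113 for *Slc14a1*.

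*Nfat5*, at 172, 200 and 204 CPM in cKO MTAL and 225 to 357 CPM in WT MTAL, was the third gene whose cKO pools were all below the WT pools. Of all genes tested, 7.56% showed this pattern. The log2 difference of *Nfat5*, -0.42 ± 0.15 (SE), did not pass, with an adjusted p of 0.101, and with no filter on low counts it did, at 0.0383. Without WT MTAL pool 15 it was -0.27, with an adjusted p of 0.205 by edgeR. *Slc6a12* had 22.5, 32.3, 14.6, 24.0 and 31.9 CPM in WT MTAL and 12.2, 13.8 and 19.4 CPM in cKO MTAL. The highest cKO pool stood above the lowest WT pool, and the log2 difference of -0.72 ± 0.27 did not pass (adjusted p of 0.110).

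*Gpcpd1* and *Slc5a3* had log2 differences of -0.49 ± 0.21 (adjusted p of 0.173) and -0.33 ± 0.16 (adjusted p of 0.220). With limma on log2(TPM + 1) they were -0.03 and -0.04, and that of *Slc5a3* was -0.17 without WT MTAL pool 15. *Slc5a3* was at 2428 CPM ± 597 in WT MTAL (SD, n = 5) and 1920 CPM ± 139 in cKO MTAL (SD, n = 3). *Slc6a6*, *Slc38a2* and *Akr1b3* had log2 differences of -0.08 ± 0.17, -0.09 ± 0.14 and 0.09 ± 0.21, and no direction can be read from them, since the sign turned on the TPM scale for *Slc6a6* (0.30) and *Slc38a2* (0.15) and without cKO MTAL pool 18 for *Akr1b3* (-0.18).

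Endothelial markers moved with the urea transporters between the genotypes. The sum of 6 of them, each reaching 1 CPM in both groups, lay between 251 and 375 CPM in WT MTAL and between 129 and 243 CPM in cKO MTAL, and *Cdh5*, the cadherin of endothelial junctions, had a log2 difference of -1.34 ± 0.19 (SE, adjusted p of 0.000447). The 6 thin limb markers summed to 356 to 447 CPM and 338 to 393 CPM, and *Aqp1* did not pass (-0.51 ± 0.23, adjusted p of 0.187). The sum of 6 red blood cell markers lay between 3.11 and 28.7 CPM in WT MTAL and between 22.5 and 47.4 CPM in cKO MTAL. The ranges overlapped through WT MTAL pool 13 alone, the others of its group being at 3.11 to 6.31 CPM. Over all groups, pools with *Xist* at 3 CPM or more had sums of 3.11 to 12.1 CPM, and the other pools of 18.1 to 47.4 CPM. The part of these cells in the fall of *Slc14a1* and *Slc14a2* was not tested.

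In the cortex, none of the 8 genes tested passed between cKO CTAL and WT CTAL, where 0.658% of the 11702 genes tested were more expressed and 0.564% less expressed, and 0.470% were also past a log2 difference of 1. Without the adjustment, *Slc14a2* alone of the 8 had a p under 0.05, as did 1379 of all 11702 genes tested. The likelihood ratio tests of edgeR and DESeq2 and both fits with limma called none of the 8 either. *Slc14a2* had a log2 difference of -1.96 ± 0.68 (SE, 5 against 5 pools) with an adjusted p of 0.236, which rested on WT CTAL pool 3, and it was -0.36 with an adjusted p of 0.657 without that pool.

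The other genes tested were closer. *Slc6a12* was at 4.56 CPM ± 1.60 in WT CTAL and 3.21 CPM ± 0.650 in cKO CTAL (SD, n = 5 each), with a log2 difference of -0.52 ± 0.28 (SE) and an adjusted p of 0.500. *Nfat5*, *Slc5a3*, *Slc38a2*, *Akr1b3* and *Gpcpd1* had log2 differences between -0.18 and -0.10, and *Slc6a6* was at 26.2 and 26.1 CPM. *Slc14a1* did not reach 3 CPM in 5 pools and was not tested, at 2.05 CPM ± 0.657 in WT CTAL and 1.19 CPM ± 0.385 in cKO CTAL, and these ranges overlapped.

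Whether the genotype went with a different change in MTAL than in CTAL was tested as an interaction in 1 fit of all 18 pools. None of the 9 genes passed, with 0.262% of the 12586 genes above 0 and 0.0238% below 0 at an adjusted p under 0.05, and 0.230% with a log2 value of at least 1 as well. None of the 9 had an unadjusted p under 0.05, against 1851 of the 12586 genes, and no member was called by either likelihood ratio test or by limma. For *Slc14a1* the difference of the genotype effects, MTAL minus CTAL, was -0.63 ± 0.45 on the log2 scale (SE), and for *Slc14a2* 0.00 ± 0.72. The latter turned to -1.56 with an adjusted p of 0.101 without WT CTAL pool 3. The fall of the urea transporters in MTAL was therefore not shown to differ from their difference in CTAL.

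The cKO MTAL was also compared to the WT CTAL. *Slc6a12* was more expressed in cKO MTAL, with a log2 difference of 1.74 ± 0.32 (SE, 3 against 5 pools) and an adjusted p of 0.0145 by edgeR. It was 1 of the 9 genes, against 1.63% of the 12024 genes tested, and none was less expressed, against 0.865% of all genes. With a log2 difference of at least 1 as well it was again 1 gene, against 1.21% of all genes. Without cKO MTAL pool 20, its highest pool, the log2 difference was 1.53 with an adjusted p of 0.0537. *Slc14a1* had a log2 difference of 1.12 ± 0.36 with an adjusted p of 0.116, and *Slc14a2* of 0.02 ± 0.83, which became 1.64 with an adjusted p of 0.0539 without WT CTAL pool 3. *Nfat5* was at 0.08 ± 0.13, and *Slc5a3*, *Slc6a6*, *Slc38a2*, *Akr1b3* and *Gpcpd1* lay between -0.03 and 0.43, none of them past the threshold. These comparisons share pools with those above, and their values are given side by side only.

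Other genes of the same pathways were read from fixed lists. Of all genes tested, 2.76% were higher and 4.10% lower between the WT segments. Between the genotypes in MTAL the shares were 4.44% and 2.57%. They were 1.12% and 0.631% between the cKO segments, and 1.63% and 0.865% between cKO MTAL and WT CTAL. Of 16 genes that make or break down osmolytes, 14 were tested between the WT segments, with 1 more and 1 less expressed in MTAL. *Isyna1*, the enzyme that starts the synthesis of myo-inositol, had a log2 difference of 0.79 ± 0.15 (SE, adjusted p of 0.00372, edgeR), and *Impa2*, which releases free inositol, of -0.35 ± 0.10 (adjusted p of 0.0391). Of the same 14 genes, *Akr1b8*, an aldo-keto reductase related to *Akr1b3* and able to share reads with it, was the only one that passed between the genotypes in MTAL, at 1.49 ± 0.38 (adjusted p of 0.0251). It was at 5.27 CPM ± 0.746 in WT MTAL (SD, n = 5) and 14.8 CPM ± 10.5 in cKO MTAL (SD, n = 3). *Isyna1* and *Akr1b8* were also higher in cKO MTAL than in WT CTAL, at 1.12 ± 0.15 and 1.64 ± 0.38, as 2 of 15 genes.

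Of 19 other solute carriers and volume-regulating channels, 15 were tested between the WT segments, with 2 more and 2 less expressed in MTAL, against 2.76% and 4.10% of all genes. *Slc7a5*, the light subunit of a large neutral amino acid exchanger, was at 1.22 ± 0.13 (SE, adjusted p of 1.89e-05, edgeR) and the choline transporter *Slc44a1* at 0.35 ± 0.08 (adjusted p of 0.0142). The creatine transporter *Slc6a8* was at -0.40 ± 0.09 (adjusted p of 0.00900) and *Lrrc8b*, a subunit of the volume-regulated anion channel, at -1.15 ± 0.33 (adjusted p of 0.0485). Between the genotypes in MTAL, 2 of 15 rose, against 4.44% of all genes, and none fell, against 2.57%. They were *Slc44a2*, a choline transporter-like gene, at 0.69 ± 0.14 (adjusted p of 0.00893) and *Lrrc8b* at 1.51 ± 0.42 (adjusted p of 0.0424). *Slc7a5* passed between the cKO segments as 1 of 16, at 1.19 ± 0.18, and between cKO MTAL and WT CTAL as 1 of 15, at 1.02 ± 0.16.

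Of 12 stress genes known to respond to tonicity, 11 were tested. *Hspa1b*, an inducible heat shock protein gene, was the only one that was higher in WT MTAL than in the WT cortex, at 0.51 ± 0.14 (SE, adjusted p of 0.0405, edgeR). *Hspa1a* and *Hspa1b*, whose near-identical sequences make their counts uncertain, were both higher in cKO MTAL than in cKO CTAL, at 1.36 ± 0.14 and 1.12 ± 0.17, and than in WT CTAL, at 0.89 ± 0.17 and 1.01 ± 0.13. None of the 11 passed between the genotypes of either segment. None of 13 kinases and cofactors known to act on NFAT5, and none of 3 other NFAT genes tested of 4, passed in any of the 6 comparisons.

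*Arg2*, the mitochondrial arginase that releases urea from arginine, was higher in MTAL of the cKO than of the WT mice, where *Slc14a1* and *Slc14a2* were lower. It was 1 of the only 2 tested of 6 genes of urea and arginine handling, the other being the collecting duct water channel *Aqp3*, itself also a principal cell marker. *Arg2* was at 11.8 CPM ± 2.30 in WT CTAL, 28.2 CPM ± 13.2 in cKO CTAL and 5.65 CPM ± 2.78 in WT MTAL (SD, n = 5 each), and at 34.2 CPM ± 21.8 in cKO MTAL (SD, n = 3). Compared to WT CTAL it was lower in WT MTAL (-1.04 ± 0.30 SE, adjusted p of 0.0454, edgeR). It was more expressed in cKO than in WT pools of MTAL (2.59 ± 0.40, adjusted p of 0.00109) and of CTAL (1.27 ± 0.24, adjusted p of 0.0175), and in cKO MTAL than in WT CTAL (1.55 ± 0.32, adjusted p of 0.0224).

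**Figure D4:**
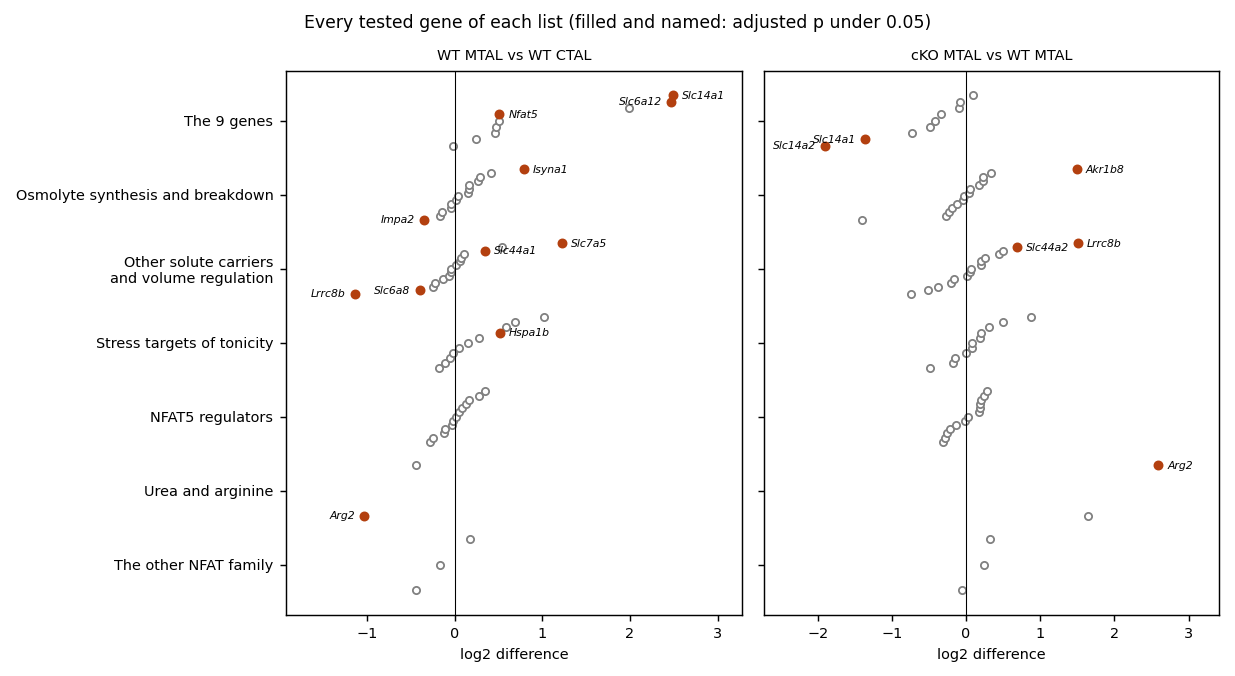
Log2 difference (x axis) of each tested gene of the 9 and of 6 pathway lists (y axis, genes of a list spread by size), between the WT segments (left) and between the genotypes in MTAL (right). Filled and named points had an adjusted p under 0.05. *Arg2* stands at -1.04 on the left and at 2.59 on the right, where *Slc14a1* and *Slc14a2* stand at -1.37 and -1.90.

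Likeness of pattern was measured as Pearson's r of log2(CPM + 1) over the 18 pools, which share the segment and genotype groups, among 12585 other genes. The patterns most like that of *Slc6a12* were those of *Tns3* (0.955), *Rph3a* (0.951) and *Cdkn2b* (0.948). For *Slc14a1* they were *Epcam* (0.950), *Scel* (0.945) and *Ankrd33b* (0.931), and for *Slc14a2* *Angpt2* (0.954), *Ptgds* (0.921) and *Corin* (0.896). *Nfat5* was nearest to *Gm16310* (0.901), *Syne3* (0.884) and *Zbtb20* (0.882), *Slc5a3* to *Trp53bp2* (0.908), *Hipk1* (0.856) and *Map3k5* (0.845), and *Akr1b3* to *Stx3* (0.804), *Clptm1* (0.778) and *Dhx29* (0.756).

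Among the members themselves, *Slc6a12* and *Slc14a1* had an r of 0.889, *Slc14a1* and *Slc14a2* of 0.877, and *Slc6a12* and *Slc14a2* of 0.777. *Nfat5* had an r of 0.747 with *Slc5a3*, 0.692 with *Slc14a1* and 0.679 with *Slc6a12*. *Akr1b3* varied apart from the others, with r between -0.18 and 0.344 to each of the other 8. These values describe the pools and carry no test.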

How the data were processed

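RNA-seq of 18 pools was analysed. Reads were trimmed by the authors (fastp) and aligned to mm10 and counted per gene with DRAGEN and a gencode annotation. The submitters' processing notes also name FastQC, Trimmomatic and Picard. The deposited expected counts carry no normalization and hold decimals for 6.26% to 9.53% of genes a pool. They were rounded to whole numbers, where whole counts had been planned for. The deposited TPM values are corrected by the authors for length and depth. Strand use in counting and the treatment of reads shared by genes are not given in the sources used here. Precision is limited by 3 to 5 pools a group. The p-values measure the spread between pools from distinct animals.

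Each comparison was fitted on its own groups, the interaction on all pools, with the quasi-likelihood test of edgeR 4.0.16 (R 4.3.3) on TMM factors, for genes with 3 CPM or more in at least 5 pools, or 3 where cKO MTAL entered. Genes with an adjusted p under 0.05 passed, and those with a log2 difference of at least 1 as well were called. Alternatives used DESeq2 1.42.0, limma 3.58.1, other scalings and filters, and left out each pool. Pools of a group differed by a chi-square of 18.5 to 198.9 per gene, where counting noise alone gives about 1. The test was checked on simulated data. Named were the 9 genes, up to 4 genes past the threshold per pathway list and comparison, and for 6 of the 9 the 3 genes of most like pattern. Other genes named as markers were chosen after their values were seen. The 9 genes and the lists were chosen with earlier results of these data known. Gene positions are those of GRCm38, the build also called mm10. Values of some marker genes are not reported here.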

Additional observations from a re-analysis of the deposited data

Results flagged for a closer look

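In 27 groups of 5 pools (9 genes in 3 groups), a pool far from the others was found 2 times, where chance gives about 5% of groups. *Slc14a2* was at 46.9 CPM in WT CTAL pool 3, against 3.03 to 5.63 CPM in the other WT CTAL pools. *Nfat5* was at 357 CPM in WT MTAL pool 15, against 225 to 239 CPM in the other WT MTAL pools, and *Slc5a3* was highest in the same pool, at 3435 CPM.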

How the results depend on the processing

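Results below are counts of genes called (adjusted p under 0.05 and a log2 difference of at least 1) and log2 differences of the 9 genes. *Slc6a12* in both comparisons of the segments and *Slc14a1* between the WT segments passed under each alternative run. Of 1033 fitted values of the 9 genes under alternatives, 927 kept their direction and their side of the threshold, 26 lost the call, 14 gained one and 66 changed sign. The cause was not tested, apart from the smaller samples of the fits without 1 pool. On log2(TPM + 1) the median of all genes moved to 0.19 between the genotypes in MTAL. In that comparison 451 genes were called, against 692 with edgeR's likelihood ratio test, 869 with no filter, 224 and 222 with limma on log2(TPM + 1) and log2(TPM + 0.1) and 807 in 1 fit of all pools, and the 2 of the 9 became 0 and 1 with limma, 1 in 1 fit of all pools and 0 with the *Xist* term. Between the WT segments the 2 of the 9 called became 3 with edgeR's likelihood ratio test, with limma on either scale, in 1 fit and with the *Xist* term. Between the cKO segments the 3 of the 9 became 2 in 1 fit of all pools. There 113 genes became 404 with edgeR's likelihood ratio test, 388 and 364 with DESeq2 on TMM and on its own size factors, 344 with no filter, 63 and 54 with limma, 354 in 1 fit and 359 with the *Xist* term. Between cKO MTAL and WT CTAL 146 became 329, 301, 301, 382, 73, 81 and 298 in the first 7 of these settings, and the 1 of the 9 became 2 with the likelihood ratio test, in 1 fit and with the *Xist* term, and 0 with limma on either scale. In the interaction 29 became 251 with edgeR's and 249 and 277 with DESeq2's likelihood ratio tests, 69 with no filter, 7 and 8 with limma, 18 with the *Xist* term and 16 with WT CTAL pool 1 counted as cKO.

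Without 1 pool, the genes called lay between 279 and 644 in MTAL between the genotypes (1 to 2 of the 9), 37 and 69 in CTAL (0), 223 and 288 between the WT segments (2 to 3), 70 and 527 between the cKO segments (1 to 3), 89 and 407 between cKO MTAL and WT CTAL (0 to 1) and 13 and 421 in the interaction (0).

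Values near 0 changed sign. Between the genotypes in MTAL, *Slc6a6* became 0.30 and 0.33 with limma and 0.29 with the *Xist* term, and *Slc38a2* 0.15 with limma on either scale (0.152 and 0.155). In CTAL, *Slc6a6* became 0.05 on total counts (0.0518), 0.014 with no filter, 0.10 and 0.11 with limma and 0.05 with the *Xist* term (0.0544), *Akr1b3* 0.0155 and 0.0161 and *Gpcpd1* 0.11 with limma (0.106 and 0.110). Between cKO MTAL and WT CTAL, *Slc14a2* became -0.0186 with edgeR's likelihood ratio test, -0.0215 and -0.0234 with DESeq2 and -0.0337 with no filter, and *Gpcpd1* 0.0234 on total counts and 0.41 and 0.44 with limma. In the interaction, *Slc6a12* became 0.0284 with WT CTAL pool 1 counted as cKO, *Slc6a6* 0.20 and 0.22 with limma, 0.22 with the *Xist* term and 0.0743 with that pool as cKO, and *Slc14a2* -0.0421 with no filter and -0.82 and -0.79 with limma.

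Without 1 pool, the log2 difference ranged as follows where its sign changed. Between the genotypes in MTAL it lay between -0.162 and 0.00818 for *Slc6a6* and between -0.183 and 0.299 for *Akr1b3*. In CTAL it lay between -0.225 and 0.129 for *Slc6a6* and between -0.156 and 0.0167 for *Akr1b3*. For *Akr1b3* it lay between -0.0996 and 0.102 between the WT segments, between -0.0701 and 0.390 between the cKO segments and between -0.201 and 0.290 between cKO MTAL and WT CTAL. For *Gpcpd1* it lay between -0.051 and 0.280 between the cKO segments and between -0.236 and 0.101 between cKO MTAL and WT CTAL, where *Slc14a2* lay between -0.427 and 1.64. In the interaction it lay between -0.219 and 0.133 for *Slc6a6*, -0.0624 and 0.126 for *Slc38a2*, -0.0954 and 0.404 for *Akr1b3* and -1.56 and 0.297 for *Slc14a2*.

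No pool reached the 10 CPM of *Xist* planned for its term, so that fit was not run, and the term at 3 CPM was chosen after seeing the data. With WT CTAL pool 1 counted as cKO none of the 9 passed in CTAL or in the interaction. No paired analysis was possible because the pool numbers are not shared between groups. The deposited counts of *Slc14a1* in the cKO CTAL went down to 15 a pool, which limits its values there.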

Other observations

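On the TPM scale *Nfat5* had 31.7, 37.3, 48.5, 24.7 and 63.5 TPM in WT MTAL pools 11, 13, 15, 17 and 19, so that pool 19 was the highest, where in CPM pool 15 was. The deposited TPM depend on the transcript length assigned in each pool, and which transcripts of *Nfat5* were counted was not analysed here.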
